A study of Mus musculus with 4 samples.

Results

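Hk2, Pfkp, Pdk4 and Prkab1 encode 4 proteins that set how much glucose a heart cell takes through glycolysis and into the mitochondria, and their mRNA was compared between salt-loaded and control hearts of DOCA-treated mice. They were chosen by gene symbol, as all printed clones whose only annotated symbol is one of these 4 names, which gave 5 of 12480 named clones and 4 of 8106 genes. Hk2, Pfkp and Pdk4 had 1 clone each and Prkab1 had 2. All 5 clones had a value on all 4 arrays, and no filter on low values was applied. The genes were picked after their log ratios on these arrays were known, so those ratios are given as a description, with no test.

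The heart burns mainly fatty acids and can shift toward glucose when its workload or hormone supply changes. Hexokinase traps glucose in the cell as glucose 6-phosphate, and hexokinase 2, from Hk2, is the insulin-responsive form of muscle. Phosphofructokinase 1 carries out the committed step of glycolysis, and Pfkp encodes its platelet form, beside the muscle form Pfkm and the liver form Pfkl. Pyruvate dehydrogenase kinase 4, from Pdk4, phosphorylates and switches off the pyruvate dehydrogenase complex, which turns pyruvate from glycolysis into acetyl-CoA. Prkab1 encodes the beta 1 subunit of AMP-activated protein kinase (AMPK), an energy sensor. The beta subunit holds the catalytic and the gamma subunit together and carries a domain that binds glycogen.

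The hearts came from 6 male mice of a wild-type backcross labelled N5–6(129Ola/C57BL/6J), 1-renin, aged 12 to 13 weeks. All 6 mice had 1 kidney removed, ate food with 0.5 mg Na per g and received deoxycorticosterone acetate (DOCA), a mineralocorticoid that makes the kidney hold sodium, for 5 weeks. The 3 high-salt mice drank water with 1% NaCl for 5 weeks and the 3 low-salt mice had tap water, so there was no group without DOCA or with both kidneys. RNA of right and left ventricles with septum was labelled from 1 high-salt and 1 low-salt mouse per array and hybridised to printed cDNA clones, giving 3 pairs of mice on 4 arrays. High-salt hearts weighed 131, 128 and 120 mg in pairs 1 to 3, against 109, 107 and 108 mg for low-salt hearts.

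High-salt RNA was labelled with Cy3 on arrays 1 and 2, for pairs 1 and 2, and with Cy5 on arrays 3 and 4, for pairs 3 and 2. Pair 2 was thus measured on arrays 2 and 4 with exchanged dyes, and these were averaged into 1 value. Pair 1 was measured only with Cy3 on high salt and pair 3 only with Cy5, so differences between dyes enter each SD over pairs. The deposited values are log ratios, read here as log2 of high salt over low salt, so a positive value means higher in high salt. That direction is likely from the wording of the array titles but is not settled, because arrays of opposite dye correlated below 0 over all features (r from -0.61 to -0.34), while arrays of the same dye correlated at 0.69 and 0.53. Without 736 features at print positions that recur in all 32 blocks, the 4 opposite-dye correlations lay between -0.37 and -0.07. Values are therefore also given with arrays 1 and 2 turned in sign, and a fold holds only if the base is 2. Ratios carry no level, so the tissue could not be checked by how strongly its markers were expressed. Of 8 cardiomyocyte markers listed, Ryr2, the calcium release channel of the sarcoplasmic reticulum, was the only one measured, at 0.054 ± 0.14 (SD, n = 3 pairs).

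The stretch around each gene's start shows how the 4 genes differ in promoter make-up, which the choice of genes did not use. The windows are RefSeq sequence of build GRCm38.p6, all on the minus strand, 250 bases before to 50 after the start, at chr6:82774405-82774704 for Hk2, chr13:6648722-6649021 for Pfkp, chr6:5496229-5496528 for Pdk4 and chr5:116024379-116024678 for Prkab1. Capitals mark matches, on either strand, to the motifs searched.
Hk2: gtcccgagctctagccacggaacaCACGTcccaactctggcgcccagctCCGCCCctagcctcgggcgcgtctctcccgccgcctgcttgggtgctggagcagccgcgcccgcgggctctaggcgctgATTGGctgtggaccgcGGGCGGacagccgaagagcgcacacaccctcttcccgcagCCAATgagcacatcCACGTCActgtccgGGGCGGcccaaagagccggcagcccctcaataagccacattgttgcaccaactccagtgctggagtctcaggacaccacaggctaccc
Pfkp: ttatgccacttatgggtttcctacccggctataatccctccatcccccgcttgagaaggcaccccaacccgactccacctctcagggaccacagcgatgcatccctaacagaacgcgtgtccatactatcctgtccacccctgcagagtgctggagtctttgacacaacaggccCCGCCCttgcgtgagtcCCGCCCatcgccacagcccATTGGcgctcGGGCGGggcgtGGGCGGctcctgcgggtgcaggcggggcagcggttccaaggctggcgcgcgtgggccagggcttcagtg
Pdk4: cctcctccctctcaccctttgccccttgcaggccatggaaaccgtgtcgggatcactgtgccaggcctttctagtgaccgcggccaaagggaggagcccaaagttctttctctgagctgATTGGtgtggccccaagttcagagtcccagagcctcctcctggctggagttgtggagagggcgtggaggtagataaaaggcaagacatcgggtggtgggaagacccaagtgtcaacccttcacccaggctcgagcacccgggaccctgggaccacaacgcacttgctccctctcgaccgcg
Prkab1: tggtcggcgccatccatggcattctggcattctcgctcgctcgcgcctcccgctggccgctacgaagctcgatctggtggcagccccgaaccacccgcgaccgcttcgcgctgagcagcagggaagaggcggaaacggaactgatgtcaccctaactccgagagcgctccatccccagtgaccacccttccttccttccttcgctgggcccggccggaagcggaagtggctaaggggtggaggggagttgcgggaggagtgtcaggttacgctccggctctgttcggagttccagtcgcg

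All 4 windows were rich in G and C, with 67.3% for Hk2, 64.7% for Pfkp, 60.7% for Pdk4 and 65.3% for Prkab1, against a median of 52.7% over 32851 mouse windows. They held 25, 21, 12 and 30 CpG dinucleotides in the same order of genes. The CCAAT box, found in 37.4% of all windows, was present in those of Hk2, Pfkp and Pdk4. The GC box GGGCGG, found in 35.7% of all windows, was present in Hk2 with 3 matches and in Pfkp with 4. In the Pfkp window these lay 76, 59, 30 and 19 bases before the start. The hypoxia response core was searched only in the form ACGTG, found in 19.6% of windows, which matched at 226 and 52 bases before the start of Hk2. The cyclic AMP response core TGACG, found in 20.8%, matched there too, at 50 bases before the start and overlapping the nearer ACGTG match. No window of the 4 held TATAAA, the steroid receptor core AGAACA, the nuclear receptor core AGGTCA or the forkhead motif GTAAACA, which occurred in 13.6%, 19.0%, 16.3% and 3.65% of all windows. The Prkab1 window matched none of the motifs searched. These are matches of letters and not measured binding.

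Pfkp, the phosphofructokinase, stood above 0 on every array. Its log2 ratios were 0.26 in pair 1 (array 1), 0.89 and 0.99 in pair 2 (arrays 2 and 4) and 0.73 in pair 3 (array 3). Both arrays of pair 2 lay above the arrays of the other pairs, and pair 1 was the lowest. The mean over pairs was 0.64 ± 0.35 (SD, n = 3 pairs), or 1.56-fold in high salt over low salt. That mean had rank 51 from the top of 8106 genes, so 0.629% of genes had a mean as high. With arrays 1 and 2 turned, its rank from the top was 950. Of the 4 genes, Pfkp alone was above 0 on all 4 arrays, as were 568 genes or 7.01% of all genes. In bulk tissue, a change in the number of cells that express a gene and a change in its RNA per cell cannot be told apart, and this holds for every ratio given here.

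Pdk4, the inhibitor of pyruvate dehydrogenase, had the highest mean of the 4 genes and the widest spread. Its log2 ratios were 0.55 in pair 1, -0.065 and 0.50 on the 2 arrays of pair 2, and 1.25 in pair 3. The pairs were ordered 3, 1 and 2, and array 2 alone lay below 0. The mean was 0.67 ± 0.53 (SD, n = 3 pairs), or 1.59-fold, at rank 42 from the top, or rank 227 with arrays 1 and 2 turned. It rested in large part on pair 3, since without that pair it was 0.38. Pair 3 was measured only with Cy5 on high salt and pair 1 only with Cy3, so pair and dye cannot be told apart. Most genes varied less between pairs: 91.7% of genes had an SD as small as that of Pdk4, and the median SD was 0.15.

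Hk2, the hexokinase, lay slightly below 0. Its log2 ratios were -0.26 in pair 1, -0.49 and 0.0043 on the 2 arrays of pair 2, and -0.16 in pair 3. The averages per pair were close together, at -0.26, -0.24 and -0.16, although array 4 of pair 2 was at 0 and array 2 was the lowest of all. Over the pairs the mean was -0.22 ± 0.049 (SD, n = 3 pairs), or 0.858-fold, and 5.37% of genes had a mean as low. With arrays 1 and 2 turned it lay above 0, at rank 1549 from the top. The SD over pairs understates the error here, because the average for pair 2 joined arrays that differed by 0.49.

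Prkab1, the AMPK beta 1 subunit, was below 0 on every array. The mean of its 2 clones was -0.42 in pair 1, -0.27 and -0.46 on the 2 arrays of pair 2, and -0.46 in pair 3. Over the pairs this gave -0.42 ± 0.046 (SD, n = 3 pairs), or 0.749-fold, at rank 99 from the bottom, or rank 3276 with arrays 1 and 2 turned. Prkab1 alone of the 4 genes was below 0 on all 4 arrays, as were 628 genes or 7.75% of all genes.

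The clones of Prkab1 gave a second reading of the same transcript. Clone 1 stood at -0.21, -0.35, -0.37 and -0.32 on arrays 1 to 4, with a mean over pairs of -0.31 ± 0.085 (SD, n = 3 pairs). Clone 2 stood at -0.63, -0.19, -0.55 and -0.61, with a mean of -0.53 ± 0.12. All 8 values were below 0, and clone 2 was the lower on every array except array 2. The mean difference of clone 2 minus clone 1 was -0.22. The SD of the gene, 0.046, was smaller than that of either clone, so the averaging of unlike clones enters it.

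**Figure D1:**
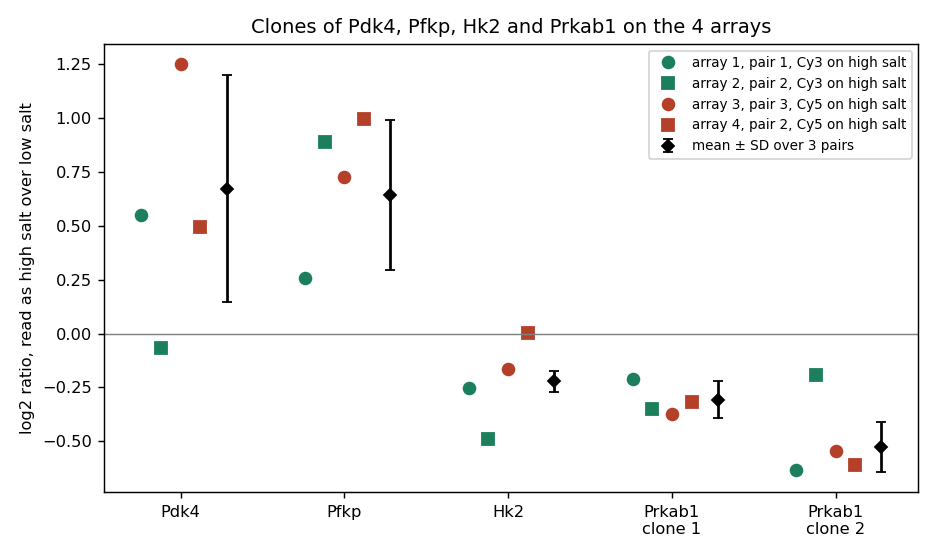
Log2 ratio, read as high salt over low salt, of the clones of Pdk4, Pfkp, Hk2 and Prkab1 on the 4 arrays. Colour gives the dye on the high-salt RNA, squares are the 2 arrays of pair 2, and black diamonds with bars are the mean and SD over 3 pairs. Pfkp lies between 0.26 and 0.99, both Prkab1 clones lie between -0.63 and -0.19, and Hk2 and Pdk4 each have 1 array on the other side of 0.

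Pair 2 shows how far the same 2 hearts repeated once the dyes were exchanged. Pfkp differed by 0.10 between the arrays (array 4 minus array 2), and 70.1% of genes had a gap as large. Prkab1 differed by -0.19, with 51.0% of genes as large, and its clones by 0.036 and -0.42. The gaps of Hk2 and Pdk4 were wider, at 0.49 and 0.56, and 19.2% and 15.7% of genes had a gap as large. The median size of the gap over all genes was 0.20. For Hk2 the gap exceeded the size of its mean, and for Pdk4 it was nearly as large as the mean.

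**Figure D2:**
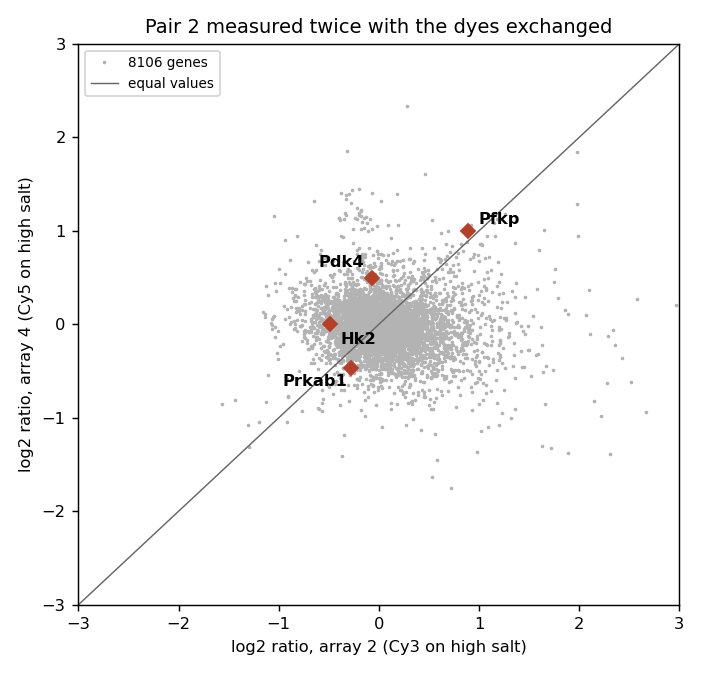
Log2 ratios of the same 2 mice on array 4 (vertical, Cy5 on high salt) against array 2 (horizontal, Cy3 on high salt) for 8106 genes in grey and the 4 genes in red, with the line of equal values. Pfkp at 0.89 and 0.99 and Prkab1 at -0.27 and -0.46 lie near the line, Hk2 and Pdk4 lie above it, and 4 genes fall outside the plotted range.

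Dye orientation moved with many ratios on these arrays, and its part in the means was not tested. With Cy5 on high salt and with Cy3 on high salt, Pfkp averaged 0.86 and 0.58, Pdk4 0.87 and 0.24, Hk2 -0.080 and -0.37, and Prkab1 -0.46 and -0.35. Each of the 4 genes kept its sign in both orientations, which describes the genes picked, whereas 4964 of 8106 genes (61.2%) had opposite signs. With arrays 1 and 2 turned in sign, the mean was 0.17 ± 0.50 for Pfkp and 0.33 ± 0.90 for Pdk4 (SD, n = 3 pairs). It was 0.11 ± 0.24 for Hk2 and -0.044 ± 0.44 for Prkab1. The sign of the Hk2 mean thus depends on the reading of the table. The means of Pfkp, Pdk4 and Prkab1 keep their sign, but each turned mean is smaller than its SD, so their direction is not steady under that reading.

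The 4 genes were picked with their values known, so the comparison with their own relatives is a description only. In the hexokinase family, Hk1, the broadly expressed form, stood at 0.74, 0.42, -0.64 and 0.0001 on arrays 1 to 4 and at 0.10 ± 0.69 over pairs (SD, n = 3 pairs). Hk1 was positive on the arrays with Cy3 on high salt and not on array 3, and Hk2 minus Hk1 came to -0.32 ± 0.74. That difference is smaller than its SD, into which the difference between dyes enters beside the spread between pairs.

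Among the phosphofructokinases, the muscle form Pfkm stood at 0.72, 0.74, -1.32 and -0.23 on arrays 1 to 4, and the liver form Pfkl at 1.36, 1.14, -1.01 and -0.37. Both had opposite signs in the 2 dye orientations, while Pfkp did not. Pfkp minus Pfkm was 0.76 ± 1.25 and Pfkp minus Pfkl 0.40 ± 1.43 (SD, n = 3 pairs). Neither difference exceeded its SD, into which the difference between dyes enters beside the spread between pairs. Pfkfb3, which makes fructose 2,6-bisphosphate, the activator of phosphofructokinase 1, was below 0 on all 4 arrays at -1.26, -0.15, -1.71 and -0.24. Its mean of -1.06 ± 0.78 did not pass the limma test over all genes (adjusted p = 0.868), and it was -0.17 with the arrays turned. Pfkfb2, the heart form of that enzyme, stood at -0.13 ± 0.17.

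The 4 pyruvate dehydrogenase kinases took different values. Pdk4 minus Pdk2 was positive on all 4 arrays, at 0.90, 0.39, 1.24 and 1.03, and averaged 0.95 ± 0.27 (SD, n = 3 pairs). Pdk2, the widely expressed kinase, itself stood at -0.35, -0.45, 0.0125 and -0.53 on arrays 1 to 4. Their means with arrays 1 and 2 turned lay closer together, at 0.33 for Pdk4 and 0.11 for Pdk2. Pdk4 minus Pdk3 was 0.59 ± 0.52, and Pdk4 minus Pdk1 was 0.52 ± 1.00. Pdk3 was close to 0 on every array, between 0.070 and 0.093, with its 2 clones at -0.017 and 0.18. The pyruvate dehydrogenase phosphatases, which reverse the action of these kinases, stood at -0.16 ± 0.41 for Pdp1 and 0.049 ± 0.11 for Pdp2. Of the complex itself, the means of the subunit genes Pdha1, Pdhb, Dlat, Dld and Pdhx lay between -0.16 for Dld and 0.13 for Pdhx. All but Pdha1 had opposite signs in the 2 dye orientations, and with arrays 1 and 2 turned 3 lay above 0 and 2 below.

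Among the measured AMPK subunits, Prkab1 stood lowest as deposited, but with arrays 1 and 2 turned Prkag1 (-0.25) and Prkab2 (-0.067) lay below its -0.044. Prkab2, the other beta subunit, was at 0.0089, -0.34, -0.14 and -0.45 on arrays 1 to 4, and Prkab1 minus Prkab2 was -0.24 ± 0.24 (SD, n = 3 pairs). In pair 2 the difference was 0.0285, so Prkab1 was lower than Prkab2 in pairs 1 and 3 only. The catalytic subunit gene Prkaa1 stood at 0.025 ± 0.11, and the gamma subunit genes Prkag1 and Prkag2 at 0.064 ± 0.39 and 0.047 ± 0.13. Prkaa2 and Prkag3 were not analysed here.

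**Figure D3:**
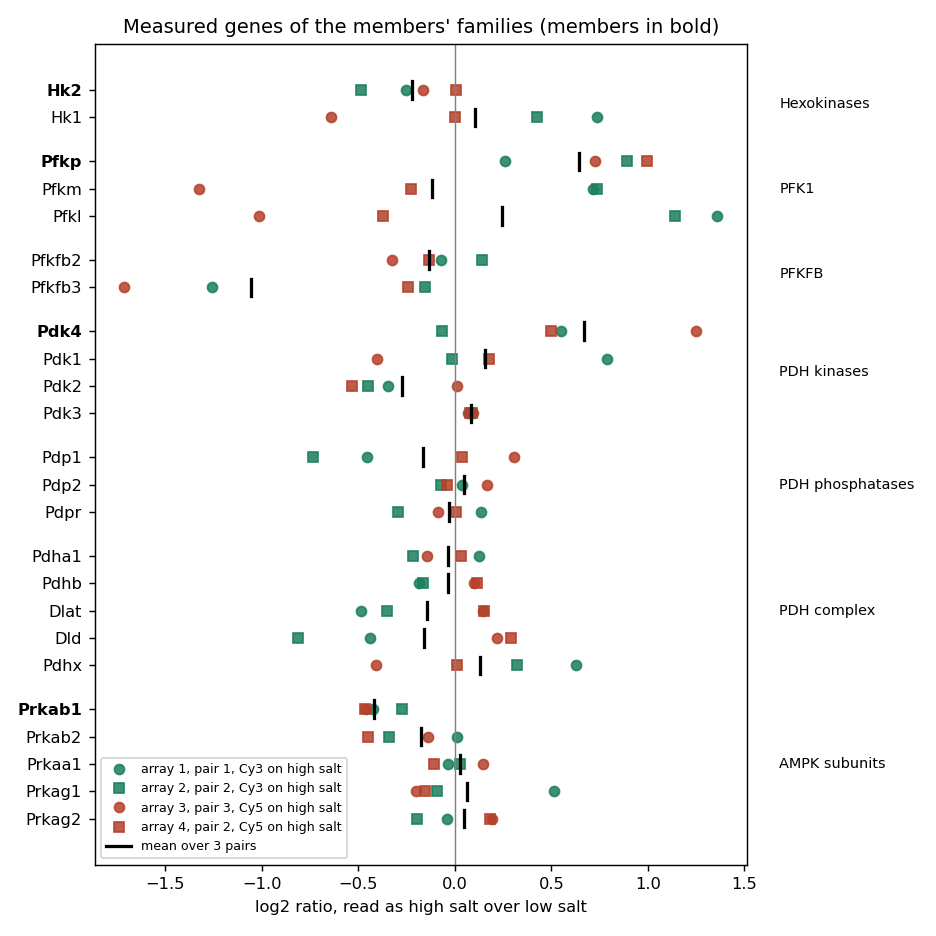
Log2 ratios, read as high salt over low salt, of Hk2, Pfkp, Pdk4 and Prkab1 (bold) and 20 measured relatives on the 4 arrays, grouped by family, with black bars for the mean over 3 pairs. Pfkm and Pfkl are positive on the arrays with Cy3 on high salt and negative on those with Cy5. Pfkp and Prkab1 keep their side of 0, as do the relatives Pfkfb3 and Pdk3, while Hk2 and Pdk4 do not.

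No gene passed at an adjusted p under 0.05 in the limma fit over 3 pairs (0 of 8106, or 0.0%), the 4 genes included, and the smallest adjusted p was 0.640. Past the unadjusted threshold of 0.05 lay 228 genes (2.81%) with positive and 213 (2.63%) with negative means. Of the 20 measured relatives, 9 had means above 0 and 11 below, with a median of -0.034, against -0.00026 over all genes. Pfkfb3 was the only relative past the unadjusted threshold. Across 105 measured genes of 15 lists on glucose and fuel use, the 4 genes left out, 47 means were above 0 and 58 below, with a median of -0.029, or 45 above and 60 below with arrays 1 and 2 turned. Past the unadjusted threshold lay 4 with positive and 7 with negative means, together 10.5%, beside 5.44% of all genes.

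The steps on either side of the 4 genes were read from the other lists. The other glycolytic enzymes with lactate dehydrogenase had 1 of 11 means above 0 and 10 below, with a median of -0.13, where 50.2% of all genes lay below 0. With arrays 1 and 2 turned, 4 lay above 0 and 7 below, with a median of -0.048. The largest ratio of that list was that of Ldhb, the heart form of lactate dehydrogenase, named after its values were seen, at -0.10, -1.57, -0.60 and -0.85 on arrays 1 to 4. Its mean of -0.64 ± 0.56 (SD, n = 3 pairs) was close in size to the means of Pfkp and Pdk4, and it was -0.048 with the arrays turned. Tpi1, triose phosphate isomerase, stood at -0.17 ± 0.036 (SD, n = 3 pairs) and was past the unadjusted threshold alone in that list, and at 0.075 with the arrays turned. Ldha, which makes lactate from pyruvate, stood at 0.23 ± 0.14 and Pkm, pyruvate kinase, at -0.20 ± 0.12. Of 6 glucose transporters, 2 lay above 0 and 4 below, between Slc2a8 at -0.17 and Slc2a2 at 0.14. As deposited, their median was 0.059 with Cy3 on high salt and -0.27 with Cy5. With the arrays turned, 1 lay above 0 and 5 below. Among 5 genes of pyruvate and lactate transport, 1 lay above 0 and 4 below, and Slc16a1, the lactate and pyruvate carrier MCT1, stood at -0.22 ± 0.095, and Bsg, its chaperone, at -0.34 ± 0.81. Turned, 3 of these 5 lay above 0, and Slc16a1 stood at 0.10. The 5 pentose phosphate genes, which draw on the product of hexokinase, had 4 means above 0 and 1 below with a median of 0.057, and 2 above and 3 below with the arrays turned. Among 10 regulators and targets of AMPK, 6 lay above 0 and 4 below, or 2 above and 8 below with the arrays turned. Mlycd, malonyl-CoA decarboxylase, stood at -0.28 ± 0.13 and Cab39l, a partner of the AMPK-activating kinase complex, at 0.21 ± 0.076, and both changed side when turned, to 0.022 and -0.044. The adjusted p of the 11 genes past the unadjusted threshold lay between 0.640 and 0.905 by limma.

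**Figure D4:**
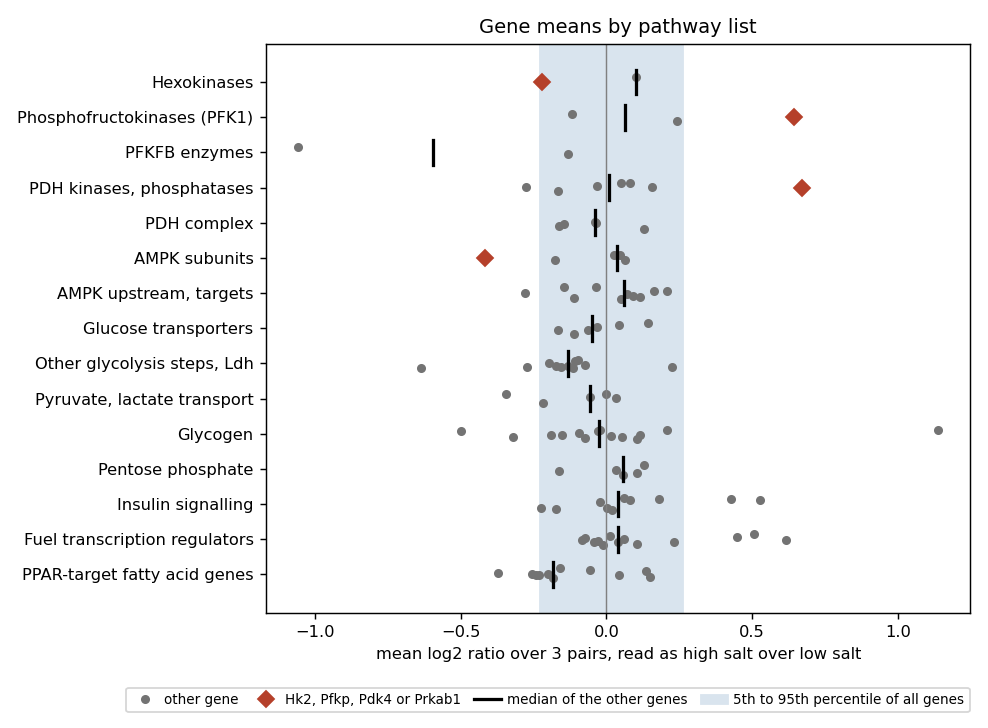
Mean log2 ratio over 3 pairs, read as high salt over low salt, of each measured gene in 15 lists, with red diamonds for Hk2, Pfkp, Pdk4 and Prkab1, black bars for the median of the other genes and shading from the 5th to the 95th percentile of all genes (-0.23 to 0.26). Pfkp, Pdk4 and Prkab1 lie outside the shading and Hk2 lies just inside it.

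Markers of other cell types were read beside these values, and their part in the 4 ratios was not tested. Fibroblast genes had 6 of 6 means above 0 of 7 listed, with a median of 0.25, and 2 of 6 with a median of -0.046 when arrays 1 and 2 were turned. The collagen genes Col3a1 and Col1a2 stood highest, at 1.04 ± 0.19 and 1.03 ± 0.20 (SD, n = 3 pairs), above the mean of each of the 4 genes. Their clones differed widely, from 0.014 to 1.98 over 4 clones of Col3a1 and from 0.0058 to 1.60 over 3 of Col1a2. Both genes were past the unadjusted threshold and not the adjusted one (limma adjusted p = 0.640), and they were -0.085 and -0.12 when turned. Endothelial genes had 2 of 4 above 0 with a median of 0.071, and smooth muscle genes 2 of 2 with a median of 0.17. With the arrays turned these were 2 of 4 with a median of 0.053 and 1 of 2 with a median of 0.12. The endothelial gene Cdh5 had opposite signs in the 2 dye orientations, at 1.47, 2.42, -0.81 and -0.36 on arrays 1 to 4. For the platelet, whose name the Pfkp enzyme carries, 1 of 4 listed markers was measured. That marker, Ppbp, stood at 0.046, 0.42, 0.42 and 0.21 on arrays 1 to 4. The 2 red cell markers had a median of -0.019, the adipocyte markers 2 of 4 above 0 with a median of 0.12, and the macrophage markers Lyz2 and Cd14 stood at 0.45 and -0.39. Turned, the red cell and adipocyte medians were 0.0070 and 0.011, and Lyz2 and Cd14 stood at 0.22 and 0.16. Of 7 skeletal muscle markers 0 were measured.

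The genes nearest to each of the 4 were found by Euclidean distance over the 4 array log ratios, as a description in which dye differences enter too. Hk2 was nearest to Fastkd3 (distance 0.075), Snn, Slc16a1, Mcl1 and Echs1 (0.13). Prkab1 was nearest to Gab1 (0.14), an adaptor of growth factor receptors, then to Sod2, Lpcat3, Gadd45b and Alas1 (0.25). Pdk4 was nearest to Rad18 (0.22), Wee1, Timp3, Foxo3 and Fn1 (0.57). Each of these neighbours, like Pdk4, had its highest value on array 3, which a choice by distance to Pdk4 favours. Foxo3, a forkhead transcription factor restrained by insulin signalling, stood at 0.53, 0.021, 0.92 and 0.11 on arrays 1 to 4. Pfkp was nearest to Pbk (0.34), Ptn, Tacc3, Tmsb10 and Nid2 (0.45). Among the 4 genes themselves, Hk2 and Prkab1 were the closest pair at 0.62, Pfkp and Pdk4 lay 1.23 apart, and the other 4 pairs lay between 1.75 for Hk2 and Pdk4 and 2.31 for Pfkp and Prkab1.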

How the data were processed

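Each feature has 1 deposited log ratio per array, read as log2. Its base, direction, background correction and normalization were not given in the sources used here. Of 17664 features, 17207 had values on all 4 arrays and 457 had none. Features at 23 positions recurring in all 32 print blocks were taken as controls and left out. Of all features, 12563 had 1 symbol in the platform annotation, 412 several and 4689 none. RefSeq (GRCm38.p6) held 12555 of the 12563. Clones of 1 symbol were averaged into 8106 genes, arrays 2 and 4 into 1 pair.

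Per-pair values were tested against 0 over all genes with limma 3.58.1 in R 4.3.3 (lmFit, eBayes), with Benjamini-Hochberg adjustment at 0.05. The fit was also run on simulated independent values with the SD of each gene. Those values held no dye difference, so that run does not show how the fit handles one. Python 3.11.15 with pandas 2.3.3 and numpy 2.4.6 made the counts. The mice of the 3 pairs were separate animals.

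The genes and lists were chosen with earlier results of these data known. Genes named beyond Hk2, Pfkp, Pdk4 and Prkab1 were all measured relatives, the 3 genes of smallest unadjusted p in each other list (15 pathway and 9 marker lists) and the 5 nearest genes. Alternatives were arrays turned in sign, 1 array for pair 2, pairs left out, scaling, centring, a dye covariate, 4 arrays as 4 values and clone medians. Ranks and list counts with the arrays turned were added after seeing the data. The use of each dye orientation alone was chosen after seeing the data. Promoter windows come from RefSeq.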

Additional observations from a re-analysis of the deposited data

Results flagged for a closer look

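Over the 4 arrays, 64 relatives, list genes and markers and the 5 clones of Hk2, Pfkp, Pdk4 and Prkab1 were checked, and 6 had 1 array far from the others by Dixon's criterion, and chance gives about 1 in 20. The 5 clones were not among them. Arrays 2 and 4 share both mice, so the 4 values are not independent. The AMPK gamma 1 subunit gene Prkag1 stood at 0.51 on array 1, against -0.090, -0.20 and -0.16 on arrays 2 to 4. Cab39l stood at -0.021 on array 4, and Grb10, an inhibitor of insulin receptor signalling, at 0.43 on array 2. Cpt1a, which admits fatty acids to the mitochondria, stood at -0.025 on array 2, against 0.18 to 0.19 on the others. Among cell type markers, the collagen gene Col1a2 stood at 0.80 on array 3, and Fabp4, a fatty acid carrier of adipocytes and endothelium, at 0.11 on array 2.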

How the results depend on the processing

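The count at an adjusted p under 0.05 was 0 under all 11 alternatives by limma. Hk2 turned positive, at 0.11, with arrays 1 and 2 turned in sign, and moved to -0.30 or -0.14 with pair 2 from its Cy3 or Cy5 array alone, and to -0.37 or -0.080 from the arrays with Cy3 or Cy5 on high salt only. With the arrays turned, Pfkp was 0.17 and Prkab1 -0.044, and Prkab1 was -0.35 from the arrays with Cy3 on high salt only. For Pdk4 all 13 alternatives lay within its SD of 0.53, but that SD was the widest of the 4 genes and so a loose limit. Pdk4 was 0.33 with the arrays turned and 0.24 from the arrays with Cy3 on high salt only. Leaving out 1 pair gave -0.25 to -0.20 for Hk2, 0.49 to 0.83 for Pfkp, 0.38 to 0.90 for Pdk4 and -0.44 to -0.39 for Prkab1. Genes past the unadjusted threshold numbered 441, and 1683 with the arrays turned, 1188 with a dye covariate, and 145 (without pair 2) to 851 (without pair 3) with 1 pair left out. Pathway genes past it numbered 11, and 34 with the arrays turned, 28 with a dye covariate, 17 with 4 arrays as 4 values, and 5 (without pair 2) to 16 (without pair 3) with 1 pair left out. The causes of these shifts were not tested. Each ratio is taken within 1 pair of mice, so the fit over 3 pairs is already paired. The 3 pairs limit the precision, and signal over background was not analysed here.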

Other observations

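Lists next to glucose use held the genes with the smallest adjusted p among the pathway genes. Pygm, the muscle glycogen phosphorylase that releases glucose units from glycogen, stood at -0.53, -0.50, -0.38 and -0.67 on arrays 1 to 4, a mean of -0.50 ± 0.10 (SD, n = 3 pairs, limma adjusted p = 0.640). With arrays 1 and 2 turned it was 0.021, on the other side of 0. Of 14 glycogen genes, 6 lay above 0 and 8 below, with a median of -0.026, or 7 on each side with the arrays turned. Ppp1r3c, which targets protein phosphatase 1 to glycogen, stood at 2.13, 1.60, 0.094 and 0.79, a mean of 1.14 ± 1.02, and at -0.81 with arrays 1 and 2 turned. In insulin signalling, 7 of 10 genes lay above 0 with a median of 0.040, and 4 of 10 with the arrays turned. Pik3r1, the regulatory subunit of phosphoinositide 3-kinase, stood at 0.38, 0.63, 0.48 and 0.22, a mean of 0.43 ± 0.046 (limma adjusted p = 0.640), with its 3 clones between 0.20 and 0.84, and it was -0.038 when turned. Irs1, the insulin receptor substrate, stood at -0.22 ± 0.050, and at 0.063 when turned.

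Among 11 fatty acid genes known as PPAR targets, a class that includes Pdk4, 3 lay above 0 and 8 below, with a median of -0.18. With arrays 1 and 2 turned, 7 lay above 0 and 4 below. Acadm, the medium-chain acyl-CoA dehydrogenase, stood at -0.62, -0.74, -0.088 and -0.081 on arrays 1 to 4, lower with Cy3 on high salt. As deposited, Pdk4 lay on the other side of 0 from the median of these genes, a difference that was not tested, and with the arrays turned both were above 0. Among 13 regulators of fuel use, 8 lay above 0 and 5 below, or 6 above and 7 below when turned. Txnip, which limits glucose uptake, stood at 0.96, -0.26, 0.59 and 0.87, a mean of 0.62 ± 0.33, and like Pdk4 was below 0 on array 2 alone.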
